A study of Rattus norvegicus with 20 samples.

Results

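Leukocyte miRNAs are small RNAs that white blood cells carry at high levels. In a whole organ, leukocytes that reside in or enter it are a source of them. Other cells and blood left in the tissue can add to the signal, and the cell source of each member was not measured here. The set examined here was rno-miR-142-3p, rno-miR-142-5p, rno-miR-150-5p, rno-miR-155-5p, rno-miR-223-3p and rno-miR-342-3p, written below without the species prefix. These 6 names were chosen for their known lineage, with earlier results of these data known. They were looked up among the 719 rat miRNAs of the arrays. Rows carrying 5 of the 6 names were present in the array files and all 5 were tested, and miR-155-5p, an miRNA of activated lymphocytes and macrophages, is not analysed here. Kidneys came from male Wistar rats of 80 to 100 g that received aristolochic acid I (AAI, a plant acid that injures the proximal tubule and damages DNA) by intraperitoneal injection at 40 mg per kg. The AAI kidneys were taken on day 2, day 4 or day 6. The control rats received the vehicle, polyethylene glycol mixed with an equal part of water, and only their day 6 kidneys are among the samples used here. Each of the 4 groups held 5 kidneys, each on 1 Agilent array with a single colour, giving 20 arrays. The labels do not say whether each kidney came from a separate rat, so the p-values measure the spread between these kidneys.

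miRNAs repress messenger RNAs by pairing through a short stretch at their 5′ end, the seed. From work in mouse and human, both arms of miR-142 are made in nearly all blood lineages, miR-223-3p is concentrated in neutrophils and monocytes, and miR-150-5p is high in mature B, T and natural killer cells. miR-342-3p is found in lymphoid and myeloid cells. In injured kidney, neutrophils, macrophages and lymphocytes enter the tissue in addition to the resident macrophages and dendritic cells.

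The mature sequences are shown because the seed sets which messenger RNAs a miRNA pairs with, and the members differ in it. They are RefSeq sequences on the GRCr8 rat assembly, written 5′ to 3′ with the seed (bases 2 to 8) in capitals, and all lie on the plus strand.
miR-142-3p: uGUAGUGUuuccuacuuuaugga
miR-142-5p: cAUAAAGUagaaagcacuacu
miR-223-3p: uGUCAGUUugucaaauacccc
miR-342-3p: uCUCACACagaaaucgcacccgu
These 4 lie at chr10:73055155-73055177, chr10:73055119-73055139, chrX:65151450-65151470 and chr6:133329715-133329737. None of their seeds recurred among the 693 rat mature sequences of the table. The 2 miR-142 members are the opposite arms of 1 precursor, whose 87 bases (chr10:73055104-73055190) are shown with both arms in capitals, since the arms serve below as a check of each other.
Mir142 hairpin: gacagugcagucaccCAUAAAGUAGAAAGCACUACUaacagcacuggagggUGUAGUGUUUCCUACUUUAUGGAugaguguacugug
In the RefSeq annotation Mir142 lies within the span of the protein-coding gene Tspoap1, Mir342 within that of Evl and Mir223 within that of a long noncoding RNA gene. Mir150 (chromosome 1, 104741487 to 104741571) lies within no other annotated gene. The GC content of the 4 printed miRNAs was 34.8%, 33.3%, 42.9% and 52.2% in the order above, against a median of 47.8% (quartiles 40.9% and 54.5%) over the 232 of 262 tested miRNAs with a sequence.

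The arrays differed in ways that the groups do not describe. Slides were inferred: arrays whose file headers gave the same scan date and time were taken as 1 slide, which gave 3 slides. Vehicle arrays 1 to 4 were on slide 3. The whole AAI day 2 group was on slide 2, together with vehicle array 5 and with arrays 1 and 2 of AAI day 4. The rest of AAI day 4 was on slide 1 with the whole AAI day 6 group, so vehicle and AAI day 6 shared no slide. AAI day 4 array 2 stood apart, detecting 328 miRNAs where the rest of its group detected 269 to 284, and with a mean correlation of 0.923 to them, against 0.971 or more for every other array with its own group. The members' day 4 differences from vehicle are given with and without it. Vehicle arrays detected 258 to 269 miRNAs, and AAI day 6 arrays 1 to 5 detected 304, 250, 293, 308 and 291. Of the kidney epithelium miRNAs, 9 of 10 were detected on all 20 arrays.

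Detection separated the members. miR-142-3p, miR-150-5p, miR-223-3p and miR-342-3p were detected on 20 of 20 arrays, each with all 20 of its spots above background on every array. The background-subtracted signal, in arbitrary fluorescence units, ran from 70.6 to 217 for miR-142-3p, from 241 to 649 for miR-150-5p, from 149 to 436 for miR-223-3p and from 148 to 323 for miR-342-3p. Signals of different miRNAs are not compared with each other, since each has its own probes. miR-142-5p was detected on 18 arrays, with a signal of 11.3 to 35.4 and between 0 and 20 of its 20 spots above background. It was not detected on AAI day 4 array 2 and AAI day 6 array 3, the 2 arrays with the lowest miR-142-3p. Of the opposite arms, miR-150-3p was detected on all 20 arrays, and miR-223-5p and miR-342-5p on 0. Each member was read by 2 probes, and both probes moved in the same direction in each comparison with vehicle, except for miR-150-5p at day 6 (log2 differences of 0.05 and -0.01). The 2 probes of a member cover almost the same bases on the same arrays, so they are not independent of each other.

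Levels below are log2 values of the signal relative to the 75th percentile of the array, so that 1 unit is a doubling. Differences are AAI minus vehicle from limma, and a call means an adjusted p below 0.05. In these bulk kidneys, fewer cells of a type and less of the miRNA per cell cannot be told apart.

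**Figure D1:**
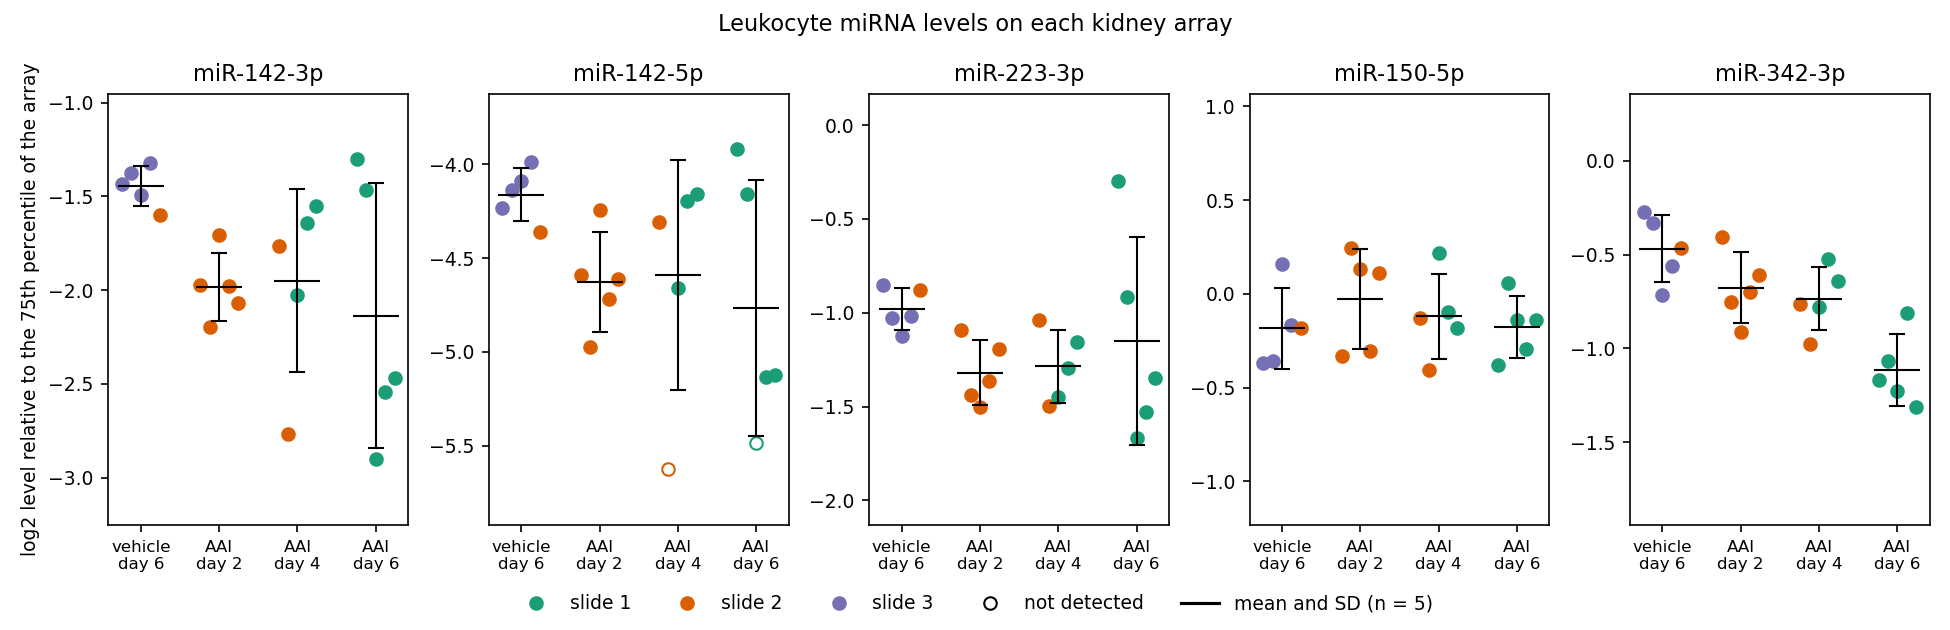
Log2 level of each leukocyte miRNA (panels) on each of the 20 kidney arrays, relative to the 75th percentile of the array, by group. Points are arrays coloured by slide, in the order of array number, open where the miRNA was not detected, and bars are the mean and SD over 5 arrays. All 5 AAI day 6 arrays lie below all 5 vehicle arrays for miR-342-3p, whereas day 6 is split for both miR-142 arms, and the vertical span is the same in all panels.

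The comparison of AAI day 6 with vehicle is the only one at the same collection day. Of the members 1 fell and 0 rose: miR-342-3p fell 1.57-fold (95% interval 1.32 to 1.86). The lymphocyte miRNA miR-150-5p had the estimate nearest to 0, and the myeloid miRNA miR-223-3p did not pass in either direction. The 1 of 5 called stands beside 26% of the 262 tested miRNAs called in this comparison (18.7% called lower), so the share of members is near the background. The median difference of the 5 members was -0.60, against -0.11 over all tested miRNAs. That median is the value of miR-142-5p, which was near background and did not pass, and the 5 include both arms of 1 hairpin. At an unadjusted p under 0.05 there were 2 of 5 members (miR-342-3p and miR-142-3p), against 41.2% of all tested.

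For miR-342-3p the vehicle arrays 1 to 5 read -0.27, -0.33, -0.71, -0.56 and -0.46. AAI day 2 arrays read -0.40, -0.75, -0.91, -0.70 and -0.61, and AAI day 4 arrays read -0.76, -0.97, -0.78, -0.52 and -0.64. At AAI day 6 the levels were -1.17, -1.07, -1.23, -0.81 and -1.31. Every day 6 array lay below every vehicle array, while the day 2 and day 4 arrays overlapped both of these groups. Groups did not overlap in that direction for 19.1% of all tested miRNAs. The difference at day 6 was -0.65 ± 0.12 (SE, 95% interval -0.89 to -0.41, adjusted p = 0.000585), from -0.47 ± 0.18 to -1.12 ± 0.19 (SD, n = 5 each). At day 4 it was -0.27 ± 0.12 (adjusted p = 0.177) and at day 2 -0.21 ± 0.12 (adjusted p = 0.552).

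The miR-342-3p call at day 6 depended on how the arrays were scaled. Without scaling between arrays the difference was -0.28 ± 0.16 (adjusted p = 0.231), and with scaling to 4 labelling spike-ins -0.36 ± 0.15 (0.133). In those settings the median over all tested miRNAs was 0.26 and 0.17, so miR-342-3p lay below the general shift in both. With the scanner software's own total signal it was -0.43 ± 0.14 (0.0614). With slide as a fixed block it was -0.87 ± 0.26 (0.0248), and as a random block -0.73 ± 0.17 (0.00819). The fixed block rests on the few arrays that link slides. Without AAI day 4 array 2 it gave -0.77 ± 0.29 (0.120), with 0 of all tested miRNAs called. Leaving out any 1 array kept the call (-0.72 to -0.60).

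**Figure D2:**
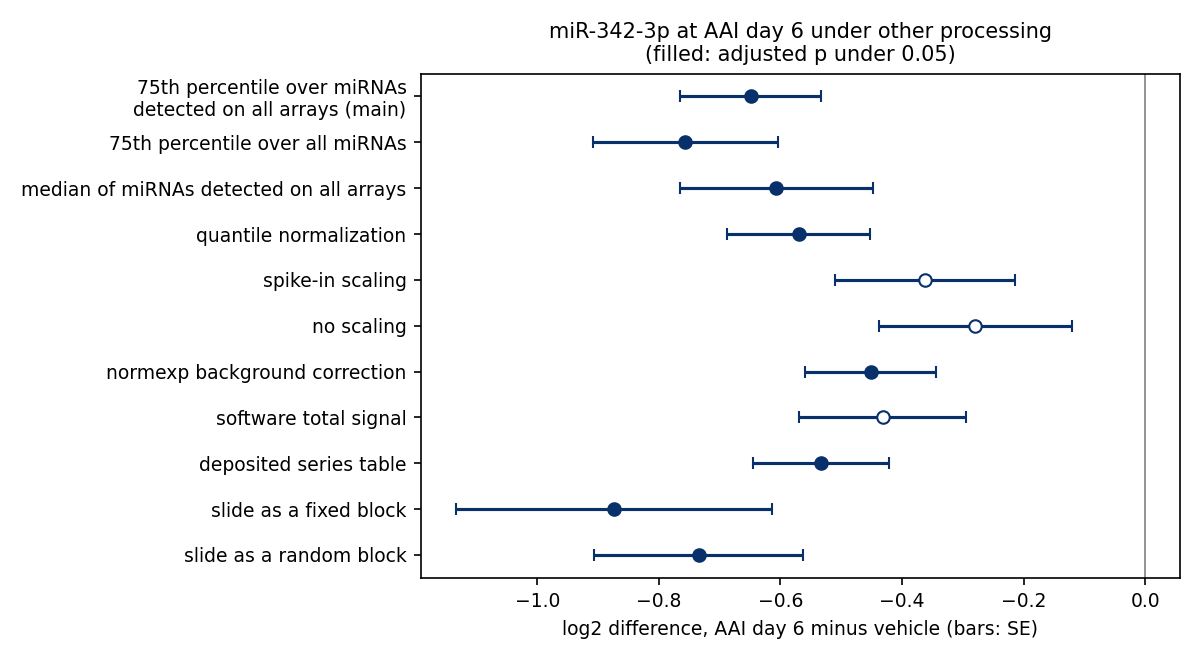
Log2 difference of miR-342-3p at AAI day 6 minus vehicle (horizontal axis) under the main processing and 10 alternatives, with bars of 1 SE and filled points where the adjusted p was under 0.05. All 11 estimates lie below 0, and the 3 open points are spike-in scaling, no scaling and the software total signal.

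miR-342-3p was also lower at AAI day 6 than at AAI day 2, by -0.44 ± 0.12 (adjusted p = 0.0249). It was the 1 of 5 members called there, against 11.1% of all tested miRNAs, and also the 1 of 5 at an unadjusted p under 0.05, against 26.3%. That call was lost in 9 of 16 alternatives, and when array 1 or 5 of AAI day 2, or array 3 or 5 of AAI day 6, was left out (adjusted p from 0.0568 to 0.0647). Between AAI day 6 and AAI day 4 limma called 0 of 5 members (0.763% of all tested), 1 of 5 at an unadjusted p under 0.05 (9.16% of all tested), and the miR-342-3p difference was -0.38 ± 0.12 (adjusted p = 0.133). Without AAI day 6 array 4 it was -0.46 ± 0.11 (0.0363). On slide 1, the only slide with both days, it was -0.47 ± 0.13 (0.168). Between AAI day 4 and AAI day 2 limma called 0 of 5 members and 0% of all tested miRNAs, and at an unadjusted p under 0.05 it had 0 of 5 members and 7.63% of all tested. These comparisons and those with vehicle share arrays, so they are not independent of each other.

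For miR-142-3p, the arm that marks leukocytes of nearly all lineages, the vehicle arrays read -1.43, -1.37, -1.49, -1.32 and -1.60. AAI day 2 arrays read -1.97, -2.20, -1.71, -1.98 and -2.07, and AAI day 4 arrays -1.76, -2.77, -2.02, -1.64 and -1.55. AAI day 6 arrays read -1.30, -1.46, -2.90, -2.54 and -2.47. The vehicle arrays lay close together, all day 2 arrays lay below them, and day 6 was split, with array 1 just above the vehicle values, array 2 among them and arrays 3, 4 and 5 below every vehicle and every day 2 array. The standard deviation over 5 arrays was 0.11 in vehicle and 0.71 at day 6. At day 6, 9.92% of tested miRNAs varied at least as much as miR-142-3p, whose SD compares with a median of 0.21, and in vehicle 59.2% did.

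No difference of miR-142-3p passed the test. At day 6 it was -0.69 ± 0.27 (95% interval -1.25 to -0.13, adjusted p = 0.0628), at day 4 -0.51 ± 0.27 (adjusted p = 0.273) and at day 2 -0.54 ± 0.27 (adjusted p = 0.456). The day 4 value was -0.30 ± 0.25 (0.575) without AAI day 4 array 2, the lowest array of its group. The day 6 value moved with single arrays. It passed without AAI day 6 array 1 (-0.90, adjusted p = 0.0147), without array 2 (-0.86, 0.0196), and, through a smaller estimate of the spread, without AAI day 4 array 2 (-0.69, 0.0312). Without array 3, 4 or 5 it was -0.50 to -0.61 (0.123 to 0.175). Unscaled it was -0.32 ± 0.26 (0.394) and with slide as a fixed block -1.06 ± 0.60 (0.167).

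At day 2, miR-142-3p was the only member whose arrays did not overlap those of vehicle, 1 of 5, against 2.29% of all tested miRNAs lower without overlap. limma called 0 of 5 members at day 2 and 1.53% of all tested miRNAs, and at an unadjusted p under 0.05 it had 0 of 5 members and 11.1% of all tested. A fit to the arrays of day 2 and vehicle alone, which leaves out the wide spread of day 4 and day 6, called miR-142-3p (-0.54 ± 0.09, adjusted p = 0.0107). That fit called 8 of the 262 tested miRNAs, 3 of them lower. Slide moves with this comparison: 4 of 5 vehicle arrays and none of the day 2 arrays were on slide 3. Vehicle array 5, which shared slide 2 with the day 2 arrays, was the lowest of the vehicle arrays, and the day 2 mean lay 0.38 below it on the log2 scale, a value with no test since 1 array gives no spread. The part of the slide was not tested beyond these values.

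miR-142-5p, the opposite arm, followed the same arrays at a signal near background. Its levels were -4.23, -4.14, -4.09, -3.99 and -4.36 in vehicle and -4.59, -4.98, -4.24, -4.72 and -4.61 at day 2. At day 4 they were -4.30, -5.63, -4.66, -4.20 and -4.16, and at day 6 -3.92, -4.16, -5.49, -5.14 and -5.13. Day 6 array 1 was again just above the vehicle values, array 2 among them and arrays 3 to 5 below. The differences were -0.60 ± 0.29 at day 6, -0.43 ± 0.29 at day 4 and -0.47 ± 0.29 at day 2 (adjusted p = 0.123, 0.369 and 0.636). The day 4 value was -0.17 ± 0.25 (0.754) without AAI day 4 array 2, on which miR-142-5p was not detected. Without AAI day 6 array 1 the day 6 value was -0.81 ± 0.28 (0.0351).

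For miR-223-3p, the neutrophil and monocyte miRNA, the vehicle levels were -0.85, -1.03, -1.12, -1.02 and -0.88. AAI day 2 arrays read -1.09, -1.44, -1.50, -1.37 and -1.19, and day 4 arrays -1.04, -1.49, -1.45, -1.30 and -1.16. At day 6 they read -0.30, -0.92, -1.67, -1.53 and -1.35. Day 6 array 1 was above every vehicle array, array 2 was among them and arrays 3, 4 and 5 were below, the same split as for miR-142-3p. The difference was -0.17 ± 0.19 at day 6 (95% interval -0.57 to 0.23, adjusted p = 0.511), -0.31 ± 0.19 at day 4 (0.326) and -0.34 ± 0.19 at day 2 (0.552). Without AAI day 6 array 1 the day 6 value was -0.39 ± 0.14 (0.0438). The direction at day 6 depended on scaling: it was 0.20 unscaled and 0.12 with spike-ins.

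miR-150-5p, the mature lymphocyte miRNA, read -0.37, -0.36, 0.16, -0.17 and -0.18 in vehicle and -0.33, 0.24, 0.13, -0.30 and 0.11 at day 2. Day 4 arrays read -0.13, -0.41, 0.22, -0.10 and -0.18, and day 6 arrays -0.38, 0.06, -0.14, -0.29 and -0.14. All 4 groups overlapped throughout. The day 6 difference was 0.01 ± 0.14, and its 95% interval of -0.28 to 0.29 gives the change these arrays allow. At day 4 it was 0.06 ± 0.14 and at day 2 0.15 ± 0.14 (adjusted p = 0.977, 0.848 and 0.776). Its sign at day 6 and day 4 was not stable under other processing or with single arrays left out, so no direction is given. The opposite arm miR-150-3p did not follow miR-150-5p on 3 arrays: it read -0.94 on AAI day 4 array 2 and -1.16 and -1.57 on AAI day 6 arrays 3 and 4, against -3.69 to -2.60 on the other 17. Those 3 arrays also had the lowest miR-142-3p of all arrays (-2.77, -2.90 and -2.54 in that order), and a link was not tested.

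At day 4 against vehicle limma called 0 of 5 members (3.44% of all tested miRNAs), with 1 of 5 at an unadjusted p under 0.05 (22.1% of all tested), which was miR-342-3p. The median difference of the members was -0.31 at day 4 and -0.34 at day 2, against -0.07 and -0.04 over all tested miRNAs. With AAI day 4 array 2 left out, the day 4 differences were -0.21 for miR-342-3p, -0.26 for miR-223-3p and 0.14 for miR-150-5p, and the median of the members was -0.21. The estimates of 4 of the 5 members were below 0 on each AAI day, and so was the median over all tested miRNAs. Of those 4, 2 are arms of 1 hairpin, and the days share the vehicle arrays, so these are not independent counts.

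**Figure D3:**
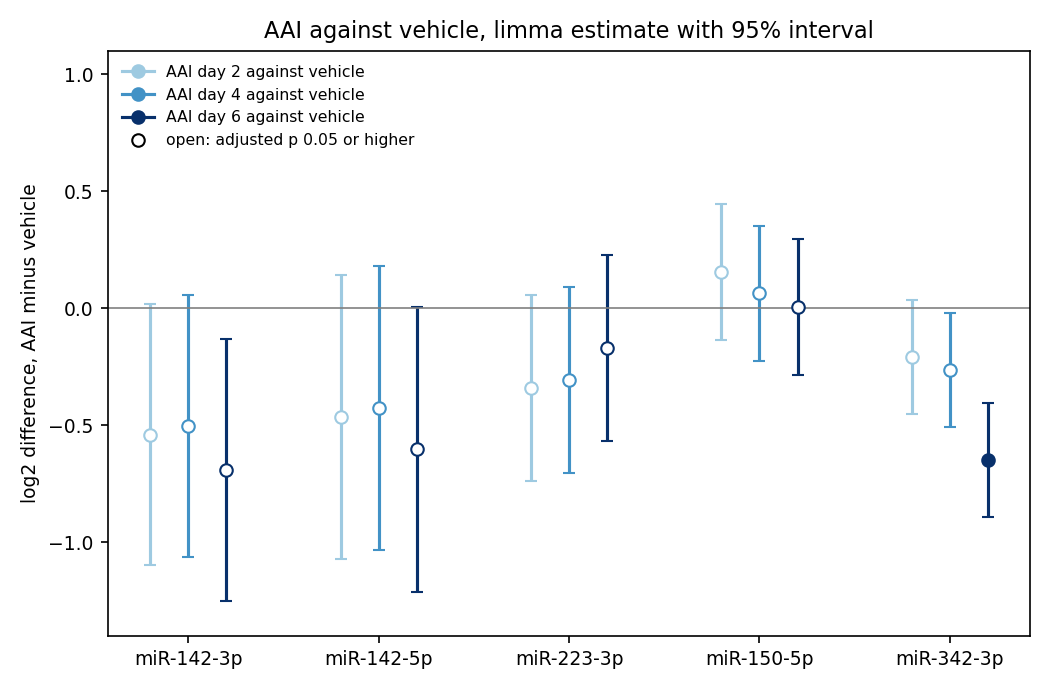
limma log2 difference (vertical axis) of each leukocyte miRNA between AAI day 2, 4 or 6 and vehicle, with 95% intervals and n = 5 arrays a group. The only filled point, an adjusted p under 0.05, is miR-342-3p at day 6, and the intervals of miR-150-5p hold 0 on all 3 days.

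Members were compared by lineage within arrays, as the difference of a pair of log2 levels on the same array. Scaling by 1 factor per array cannot alter this difference. Quantile normalization can, and it was not run for the pairs. Of 5 pairs in 6 comparisons, 0 of 30 exact permutation tests passed after Benjamini-Hochberg adjustment (smallest p possible 0.00794). The myeloid and lymphoid members, as miR-223-3p minus miR-150-5p, differed by -1.29 ± 0.39 at day 2, -1.17 ± 0.30 at day 4 and -0.97 ± 0.62 at day 6, and by -0.80 ± 0.30 in vehicle (SD, n = 5 each). The change at day 2 was -0.49 (two-sided exact permutation p = 0.0635, adjusted p = 0.344). The smallest p was for miR-150-5p minus miR-142-3p, which was 1.26 ± 0.27 in vehicle and 1.96 ± 0.34 at day 2, a change of 0.69 (exact p = 0.0159, adjusted p = 0.344). Next was miR-223-3p minus miR-142-3p, which was 0.47 ± 0.18 in vehicle and 0.98 ± 0.26 at day 6 (change 0.52, exact p = 0.0238, adjusted p = 0.344).

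The 2 arms of miR-142 were compared in the same way. miR-142-3p minus miR-142-5p was 2.64 ± 0.11 at day 2, 2.64 ± 0.13 at day 4, 2.63 ± 0.04 at day 6 and 2.72 ± 0.09 in vehicle (SD, n = 5 each). The largest change from vehicle was -0.09 (exact permutation p = 0.0873, adjusted p = 0.344). That small size did not hold in 2 alternatives. The change was -1.20 at day 2 with the software total signal, and 1.52 at day 6 and 1.13 at day 4 in the deposited table (adjusted p = 0.310, 0.204 and 0.913). The software total of miR-142-5p, which was near background, was 74.8 and 65.7 on AAI day 2 arrays 1 and 2. It was 9.62 to 20.7 on the rest of that group. The cause of these changes was not tested. The arms varied together over a day 6 range of more than 1 log2 unit, as the level plots show.

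Across the 20 arrays, the members were related through their deviations from the group mean, with 15 relations computed and p-values from 100000 permutations within groups. miR-142-3p and miR-142-5p had r = 0.981 and rho = 0.958 (adjusted p = 0.00015 for both, from the smallest p the permutations can give, 1e-05), and r = 0.973 without the 2 arrays farthest from the median. miR-142-3p and miR-223-3p had r = 0.775 (permutation p = 0.00495, adjusted 0.0310) and rho = 0.735 (p = 0.00917, adjusted 0.0569), with r = 0.716 without those 2 arrays. miR-142-5p and miR-223-3p had r = 0.722 (p = 0.00621, adjusted 0.0310) and rho = 0.714 (adjusted 0.0569), with r = 0.666 without them. Both relations with miR-223-3p lost the threshold when any day 6 array, or AAI day 4 array 2 or 5, was left out (adjusted p 0.0583 to 0.147). Within slides, miR-142-3p and miR-223-3p had r = 0.941 over 8 arrays of slide 1 (permutation p = 0.00149, adjusted 0.00745 over 15 relations) and r = 0.521 over 7 arrays of slide 2 (permutation p = 0.650, adjusted 0.750). Without the 2 arrays farthest from the median, r was 0.971 on slide 1 and -0.271 on slide 2. Vehicle array 5, the only array of its group on slide 2, was not used there. On slide 2, miR-223-3p had its highest r with miR-342-3p, at 0.904 (rho = 0.929, permutation p = 0.00429, adjusted 0.0643), where slide 1 gave r = -0.058. Slide 3 held too few arrays.

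**Figure D4:**
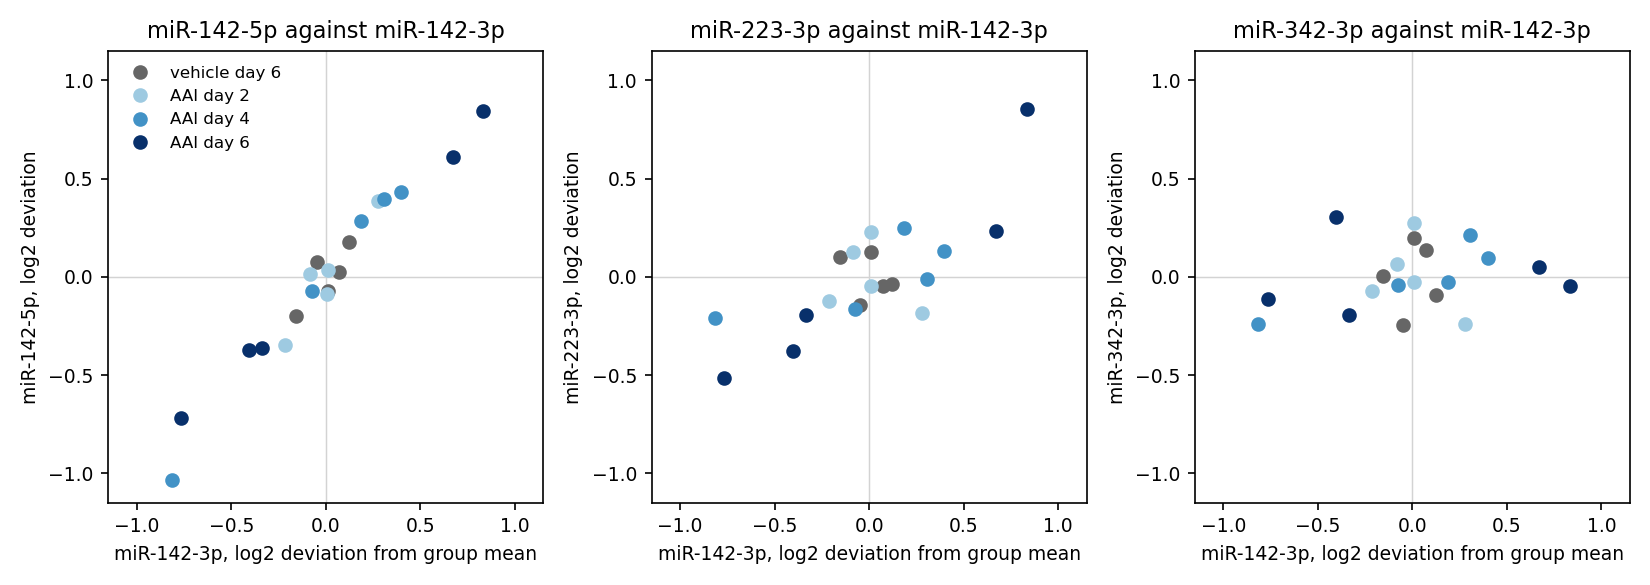
Deviation of the log2 level from the group mean on each of the 20 arrays, for miR-142-5p, miR-223-3p and miR-342-3p (vertical axes) against miR-142-3p (horizontal axis), coloured by group. miR-142-5p lies along a line (r = 0.981), miR-223-3p follows more loosely (r = 0.775) with the day 6 arrays at both ends, and miR-342-3p shows no such trend (r = 0.214).

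Over all 20 arrays the relations of miR-342-3p and miR-150-5p to the other members had r between -0.376 and 0.214, and 0 of the 7 passed. Those 7 were the pairs of miR-342-3p or miR-150-5p with another member. The miRNAs most like each member over all 20 arrays, group differences included, also differed. These correlations share arrays, slides and group differences and are given as descriptions, without a test, among 230 miRNAs detected on all arrays (231 for miR-142-5p). For miR-342-3p they were miR-192-3p (r = 0.947), miR-192-5p (0.944) and miR-185-5p (0.932). The first 2 are arms of 1 hairpin, and all 3 were also called lower at day 6 than in vehicle (-0.81, -0.56 and -0.69 in that order). For miR-142-3p they were miR-532-5p (0.851), miR-223-3p (0.758) and let-7a-1-3p (0.748). For miR-223-3p they were miR-142-3p (0.758), let-7a-1-3p (0.684) and miR-582-5p (0.662), for miR-142-5p they were miR-142-3p (0.981), miR-532-5p (0.844) and let-7a-1-3p (0.755), and for miR-150-5p they were miR-9a-5p (0.870), miR-326-3p (0.853) and miR-9a-3p (0.850). Without AAI day 4 array 2 the r of let-7a-1-3p with miR-142-5p was 0.651 and with miR-142-3p 0.679, that of miR-532-5p with miR-142-5p was 0.781, and the others moved by less.

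Other blood and tissue miRNAs, on lists chosen with earlier results of these data known, moved beside the members. miR-451-5p, made in red cell precursors and carried by red cells, read 0.06, 0.36, -1.35, -0.38 and -0.54 in vehicle and -3.11, -2.36, -2.96, -2.89 and -4.17 at day 6, with no overlap (-2.73 ± 0.34, adjusted p = 1.60e-05). Its partner in the same transcript, miR-144-3p, was detected on 3, 3, 2 and 0 of 5 arrays of vehicle, day 2, day 4 and day 6, and miR-144-5p on 0 of 20. The log2 of the summed level of the 3 red cell miRNAs on the arrays, of 4 listed, was -1.27 to 0.43 in vehicle and -3.87 to -2.26 at day 6. For the 5 leukocyte members the log2 of the summed level was 1.07 to 1.29 at day 2, 0.84 to 1.27 at day 4, 0.85 to 1.32 at day 6 and 1.33 to 1.38 in vehicle. Such sums weight each miRNA by the signal of its own probes, so members with a low signal add little. They were not tested, have no counterpart over all miRNAs and give no direction for leukocytes as a whole. Within groups, miR-451-5p and the members had r between 0.03 and 0.38, and 0 of 5 of these relations passed. The part of blood left in the tissue in the members' levels was not tested beyond these values.

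Of the 9 tested kidney epithelium miRNAs, 4 fell and 0 rose at day 6, against 18.7% called lower over all tested, with a median of -0.23 against -0.11. Those that fell were miR-192-5p (-0.56 ± 0.13), miR-194-5p (-0.63 ± 0.13), miR-196a-5p (-0.31 ± 0.08) and miR-204-5p (-0.42 ± 0.10), and the other 5 lay between -0.23 (miR-200b-3p) and 0.12 (miR-200c-3p). The log2 of the summed level of the list, weighted in the same way and not tested, was 5.35 to 5.50 in vehicle and 5.07 to 5.41 at day 6. In the list of stromal and smooth muscle miRNAs 1 of 5 fell, miR-214-3p (-0.25 ± 0.08), near the 18.7% of all tested, and of the platelet and endothelial list 0 of 2 passed in limma, at an unadjusted p under 0.05 only miR-126a-3p (-0.21 ± 0.07). Of the 8 miRNAs of other tissues, 2 were tested and 0 passed, 0 also unadjusted. The part of any of these cell types in the miR-342-3p result was not tested.

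Among 23 tested of 29 further miRNAs linked to blood cells or inflammation, 6 fell and 2 rose at day 6, with a median of -0.04. Over all tested miRNAs 26% were called and 18.7% fell, so the count is not far from the background. miR-146a-5p, which dampens signalling from Toll-like receptors, fell by 0.72 ± 0.09 on the log2 scale, and also by 0.42 ± 0.09 at day 4 (adjusted p = 0.00786). miR-181a-5p and miR-181b-5p, which tune T and B cell development in mouse, fell by 0.24 ± 0.07 and 0.44 ± 0.09. The clustered miR-125a-5p and miR-99b-5p fell by 0.34 ± 0.08 and 0.32 ± 0.09, and miR-125b-5p by 0.19 ± 0.06. miR-21-5p, raised in many injured tissues and also made by tubule cells, rose by 1.11 ± 0.24, and miR-212-3p rose by 0.65 ± 0.17. At day 4 miR-146a-5p alone among the 23 was called, where 3.44% of all tested miRNAs were called. At day 2 limma called 0 of the 23, where 1.53% of all tested were called.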

How the data were processed

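RNA from 20 kidneys was hybridized to single-colour miRNA arrays. The authors deposited the output of Agilent Feature Extraction 10.7.1.1, per the file headers: background-subtracted intensity per spot, unscaled between arrays, with other columns flagging detection and outliers. A deposited series table of log2 values, whose making is not given in the sources used here, served as an alternative only. Probe positions refer to rn4, per the file headers.

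Mean spot intensities per probe, without spots flagged as outliers, were summed for each miRNA, scaled to the array's 75th percentile over the 231 miRNAs detected on all 20 arrays, raised to a floor of 0.00640 and log2 transformed. Of 719 miRNAs, the 262 detected throughout at least 1 group entered 1 limma fit (limma 3.58.1, R 4.3.3) over all 4 groups (16 residual degrees of freedom), and two-sided p-values were Benjamini-Hochberg adjusted over the 262 in each of 6 contrasts. Pairs of members were tested with two-sided exact permutation over 252 splits (scipy 1.17.1). The number of arrays limits the precision. The limma fit and the exact permutation test were tested on simulated data. Array numbers did not pair the samples (correlations of deviations between arrays of one number ran from -0.62 to 0.66).

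The members and lists were chosen with earlier results of these data known. Named were all members, the list miRNAs, and for each member the 3 miRNAs most correlated with it. Alternatives were background correction (normexp, offset 50), scaling, floor, filter, software total signal, the deposited table, slide and replicate blocks, and leaving out each array. The slide block without AAI day 4 array 2 and the alternatives for relations across arrays were chosen after seeing the data.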

Additional observations from a re-analysis of the deposited data

Results flagged for a closer look

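AAI day 4 array 2 had 328 detected miRNAs, and the nearest array of its group had 284, a gap that is 0.746 of the range of the group. It was the only value of 52 groups of 5 values tested to lie so far from the others, and chance marks about 1 in 20 such groups. On this array miR-142-3p and miR-142-5p were the lowest of their group, at -2.77 and -5.63, and miR-150-3p the highest, at -0.94. Without it the day 6 value of miR-142-3p passed the threshold (adjusted p = 0.0312), and miR-342-3p kept its call.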

How the results depend on the processing

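The number of arrays, the near-background signal of miR-142-5p and the lack of a slide with both vehicle and AAI day 6 limit these results. In the comparison of AAI day 6 with vehicle the count of called members was 1, beside 68 of 262 tested miRNAs. It was 0 with no scaling, spike-in scaling or the software total signal (34, 29 and 23 of all tested). It was also 0 with the fixed slide block without AAI day 4 array 2, which called 0 of all tested. With the 75th percentile over all miRNAs it was 2 (miR-142-3p added, -0.80, adjusted p = 0.0414), beside 77 of all tested. Leaving out single arrays gave 1 to 4, beside 58 to 88 of all tested, with 4 without AAI day 6 array 1 (77 of all tested). In AAI day 6 against AAI day 2 the 1 call became 0 with normexp, quantile normalization, no scaling, the median of detected miRNAs, spike-in scaling, the software total signal, the deposited table, a fit to only those groups, or the fixed slide block without AAI day 4 array 2. These alternatives called 0 to 19 of all tested there, against 29 in the main fit. Leaving out single arrays gave 0 to 1 members in that comparison, beside 8 to 49 of all tested. Day 2 against vehicle gave 1 in place of 0 in a fit to those groups (8 of all tested). Day 6 against day 4 gave 0 to 1 without single arrays (1 to 8 of all tested). The cause of each was not tested. Replicate number as a block kept 1 member called at day 6 against vehicle (miR-342-3p, -0.65, adjusted p = 0.000833) and changed no other member's call. Over all tested miRNAs the calls at day 6 against vehicle ranged from 0 to 90 over the alternatives other than leaving out arrays.

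Directions that turned were in differences that had not passed the test. For miR-142-5p they were 0.75 at day 2 with the software total signal, 0.056 at day 4 with the fixed slide block without AAI day 4 array 2, and 0.071 in day 6 against day 2 with normexp. For miR-150-5p at day 4, -0.090 with the fixed block and within slide; at day 6, -0.017 with normexp, -0.10 with the percentile over all miRNAs, -0.25 and -0.091 with the fixed and random block and -0.11 with the block without AAI day 4 array 2; and in day 6 against day 4, 0.019 with quantile, 0.0084 with median scaling, 0.067 with the software total and 0.012 with the deposited table. For miR-223-3p they were 0.054 at day 4 and 0.20 at day 6 unscaled, and at day 6 0.12 with spike-ins and 0.045 with the software total. miR-342-3p was 0.087 at day 2 and 0.095 at day 4 unscaled and 0.059 at day 2 with spike-ins. Within arrays, miR-342-3p minus miR-142-3p at day 6 was -0.10 with normexp, miR-142-3p minus miR-142-5p was 0.0086 and 0.00032 at day 6 and day 4 with the software total and 1.52, 1.13 and 0.30 at day 6, 4 and 2 in the deposited table, and miR-223-3p minus miR-142-3p at day 2 was -0.056 within slide 2. Unscaled, the relations of miR-150-5p with miR-223-3p and miR-342-3p were 0.24 and 0.42 and that of miR-223-3p with miR-451-5p was -0.016.

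With single arrays left out, miR-142-3p ran from -0.36 to 0.041 (day 6 against day 2) and -0.39 to 0.0051 (against day 4), miR-142-5p from -0.35 to 0.043 and -0.43 to 0.0044, and miR-223-3p from -0.046 to 0.30 and -0.078 to 0.26. miR-150-5p ran from -0.021 to 0.15 at day 4, -0.054 to 0.091 at day 6 and -0.13 to 0.027 in day 6 against day 4. miR-342-3p minus miR-142-3p at day 6 ran from -0.13 to 0.26. Relations passing numbered 1 to 3, and r ran from -0.13 to 0.26 (miR-142-3p and miR-150-5p), -0.098 to 0.32 (miR-142-5p and miR-150-5p), -0.013 to 0.36 (miR-142-5p and miR-342-3p), -0.080 to 0.32 (miR-150-5p and miR-451-5p) and -0.071 to 0.098 (miR-223-3p and miR-451-5p).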
